A study of Mus musculus with 8 samples.

Results

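The 9 genes described here encode the MHC class II molecule and its handling proteins (H2-Aa, H2-Ab1, H2-Eb1, Cd74, H2-DMa, H2-DMb1), the class II transactivator (Ciita) and the costimulatory B7 proteins (Cd80, Cd86). They were chosen by name and matched to the deposited count table through their Ensembl identifiers, and all 9 of the 23369 genes in the table that carry these names were found. The cells were spinal cord neutrophils of C57BL/6N mice with EAE (a model in which immunisation leads the immune system to attack myelin), gated on CD45, CD11b and Ly6G. The cells were taken at ZT1 or at ZT13, zeitgeber times that count hours from lights-on, with 4 libraries at each. All 8 share 1 labelled batch and the same EAE induction, the labels name no transgene or further treatment, and neither age nor sex was given. Nothing in the labels says outright that the libraries of a group came from different animals, so p-values measure the spread between these libraries, which may be technical in part.

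MHC class II presents peptides from engulfed proteins to CD4+ T cells. Its alpha and beta chains are assembled on the invariant chain, encoded by Cd74, and the H2-DM heterodimer later exchanges the invariant-chain remnant for peptide. Ciita does not bind DNA by itself: it is recruited to class II promoters by factors that sit on paired elements called the X and Y boxes. Cd80 and Cd86 on the presenting cell engage Cd28 and Ctla4 on the T cell. Dendritic cells, B cells and activated macrophages and microglia are the classical class II-positive cells, whereas resting neutrophils are known for little of it, and induction by interferon-gamma has been described in inflamed tissue. The question put to the data was whether these genes move together from library to library, and whether they differ between the 2 times.

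Short promoter stretches show an arrangement of letters that 3 of the class II genes held. RefSeq promoter windows on GRCm38.p6 (250 bases before to 50 after the annotated start) were at hand for 5 of the 9 genes, in 6 windows, and 2 of the 3 that held both X-like and Y-box letters are shown as examples, 1 alpha and 1 beta chain. Capitals mark CTNGNAAC, letters of the X box, and TGATTGG, letters of the Y box; both are 5′ to 3′ on the gene's strand. The H2-Aa stretch is chr17:34287847-34287927 on the minus strand and the H2-Eb1 stretch is chr17:34305753-34305832 on the plus strand.
H2-Aa: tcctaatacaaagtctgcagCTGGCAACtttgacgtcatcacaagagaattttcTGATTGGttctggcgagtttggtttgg
H2-Eb1: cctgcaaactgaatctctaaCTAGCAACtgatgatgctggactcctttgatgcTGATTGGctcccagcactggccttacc
The X-like letters of H2-Aa begin 84 bases and those of H2-Eb1 94 bases upstream of the start, with 26 and 25 bases between the X-like and the Y-box letters. H2-DMb1 holds the same arrangement, with CTAGTAAC 97 bases and TGATTGG 63 bases upstream of its RefSeq start and 26 bases between them. Searched on both strands in all 32851 windows, CTNGNAAC occurred in 13.2%, TGATTGG in 7.82%, and the former followed by the latter on 1 strand within 40 bases in 0.0944% (31 windows). H2-Ob, another class II gene, and Rfx5, a subunit of the X-box factor, were among the 31. The windows of Cd80 and H2-DMa held neither set of letters. The X-like letters were written down after these windows had been read, and a match is a description of letters, not of binding.

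The libraries held 46152067 to 67873023 counts. For counting error alone, the 3 counts that a count of 0 allows stood at 0.0442 to 0.0650 CPM (counts scaled to a common library size), scaled here by library totals only. The CPM values below are scaled with TMM factors as well. Every member had 68 or more counts in each library, so that depth did not limit the values below. The number of genes with 1 or more counts ran from 15760 to 17701 at ZT1 and from 13945 to 15751 at ZT13, lowest in ZT13 replicate 3. The sort was visible in the RNA, with Ly6g at 264 to 498 CPM at ZT1 and 454 to 512 at ZT13. The summed CPM of 10 neutrophil markers ran from 126240 to 161680 at ZT1 and from 163990 to 211260 at ZT13, without overlap. Any 2 libraries differed by more than counting error (mean chi-square per gene 67.7 or more), and all 8 were treated as separate.

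Compared per length of merged exons, Cd74 was far above the other members in every library. Its mean over the 8 libraries was 105 CPM per kb, against 21.6 for H2-Ab1, 16.2 for H2-DMb1, 12.9 for H2-DMa, 10.2 for Cd86, 5.84 for H2-Aa, 5.23 for H2-Eb1, 4.99 for Cd80 and 0.419 for Ciita. Of the neighbours in this order, the ranges over libraries were separate only between Cd74 and H2-Ab1 (lowest 52.2 against highest 34.9 CPM per kb) and between Cd80 and Ciita (2.91 against 0.989). The other neighbours overlapped, and Cd80 exceeded H2-Eb1 in 4 of the 8 libraries. Merged exons of all annotated transcripts are longer than a single mRNA, which lowers these values unevenly: H2-Aa has 3798 bases by this count and Cd74 1679.

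The alpha and beta chains of the class II molecule varied several-fold between libraries of the same time. H2-Ab1 (ENSMUSG00000073421.7, GRCm38 chromosome 17, 34257689 to 34269419, protein-coding), the beta chain of I-A, stood at 21.2, 78.7, 89.6 and 27.6 CPM in ZT1 replicates 1 to 4 and at 75.04, 69.4, 37.6 and 45.4 CPM in ZT13 replicates 1 to 4. ZT1 replicates 1 and 4 were lowest, ZT1 replicates 2 and 3 highest, and the ZT13 values lay between them. H2-Aa (ENSMUSG00000036594.16, chromosome 17, 34282744 to 34287823), its alpha partner, stood at 9.14, 31.7, 32.0 and 10.9 CPM at ZT1 and at 30.7, 32.2, 8.52 and 22.2 CPM at ZT13. Here ZT13 replicate 3 joined the low libraries, and the 3 low and 5 high libraries were set apart by a gap of 53.1% of the whole log2 range. H2-Eb1 (ENSMUSG00000060586.12, chromosome 17, 34305867 to 34316674), the beta chain of I-E, stood at 3.43, 16.0, 15.4 and 4.47 CPM at ZT1 and at 14.5, 12.8, 2.85 and 11.8 CPM at ZT13. It fell into the same 3 low and 5 high libraries. C57BL/6 mice are known to make no I-E alpha chain, and its pseudogene H2-Ea-ps had 3 counts in ZT13 replicate 2 and 0 in the other 7 libraries.

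The invariant chain followed H2-Ab1 library by library. Cd74 (ENSMUSG00000024610.16, chromosome 18, 60803848 to 60812652) stood at 87.7, 239, 279.9 and 91.6 CPM at ZT1 and at 227, 205, 122 and 153 CPM at ZT13. The order of the 8 libraries was identical to that of H2-Ab1, with ZT1 replicates 1 and 4 at the bottom and ZT1 replicates 3 and 2 at the top. The means were 175 ± 99.6 (SD, n = 4) at ZT1 and 177 ± 47.7 at ZT13.

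The 2 chains of H2-DM behaved unequally. H2-DMb1 (ENSMUSG00000079547.5, chromosome 17, 34153072 to 34160230) stood at 15.8, 33.1, 33.5 and 18.3 CPM at ZT1 and at 30.9, 32.6, 25.4 and 28.7 CPM at ZT13. ZT1 replicates 1 and 4 were again the lowest, and the other 6 libraries lay between 25.4 and 33.5. H2-DMb2, a near copy of it, stood at 3.03 to 7.53 CPM, and reads shared between the copies could have been split by the counting. H2-DMa (ENSMUSG00000037649.11, chromosome 17, 34119541 to 34139101) stood at 37.8, 42.8, 60.5 and 32.9 CPM at ZT1 and at 52.7, 48.8, 30.1 and 51.5 CPM at ZT13. Its span was the smallest of the 9 genes, 2.01-fold from lowest to highest library.

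Ciita, the transactivator, was the least abundant member and had the widest span. Ciita (ENSMUSG00000022504.11, chromosome 16, 10480059 to 10528418) stood at 2.71, 6.14, 9.43 and 2.76 CPM at ZT1 and at 4.83, 2.15, 1.37 and 2.54 CPM at ZT13, a span of 6.90-fold. ZT1 replicates 2 and 3 were highest, as for Cd74, but ZT13 replicate 2 was among the lowest although it was high for H2-Aa. The B7 genes lie near each other on chromosome 16. Cd80 (ENSMUSG00000075122.6, 38455561 to 38496335) stood at 14.9, 21.2, 24.0 and 15.3 CPM at ZT1 and at 21.8, 15.03, 10.8 and 24.9 CPM at ZT13. Its highest library was ZT13 replicate 4, which was intermediate for the class II genes. Cd86 (ENSMUSG00000022901.14, 36603869 to 36666081) stood at 31.5, 31.0, 61.1 and 40.1 CPM at ZT1 and at 35.9, 25.7, 35.0 and 37.3 CPM at ZT13. ZT1 replicate 3 stood alone at the top, and the other 7 libraries did not follow the class II order.

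**Figure D1:**
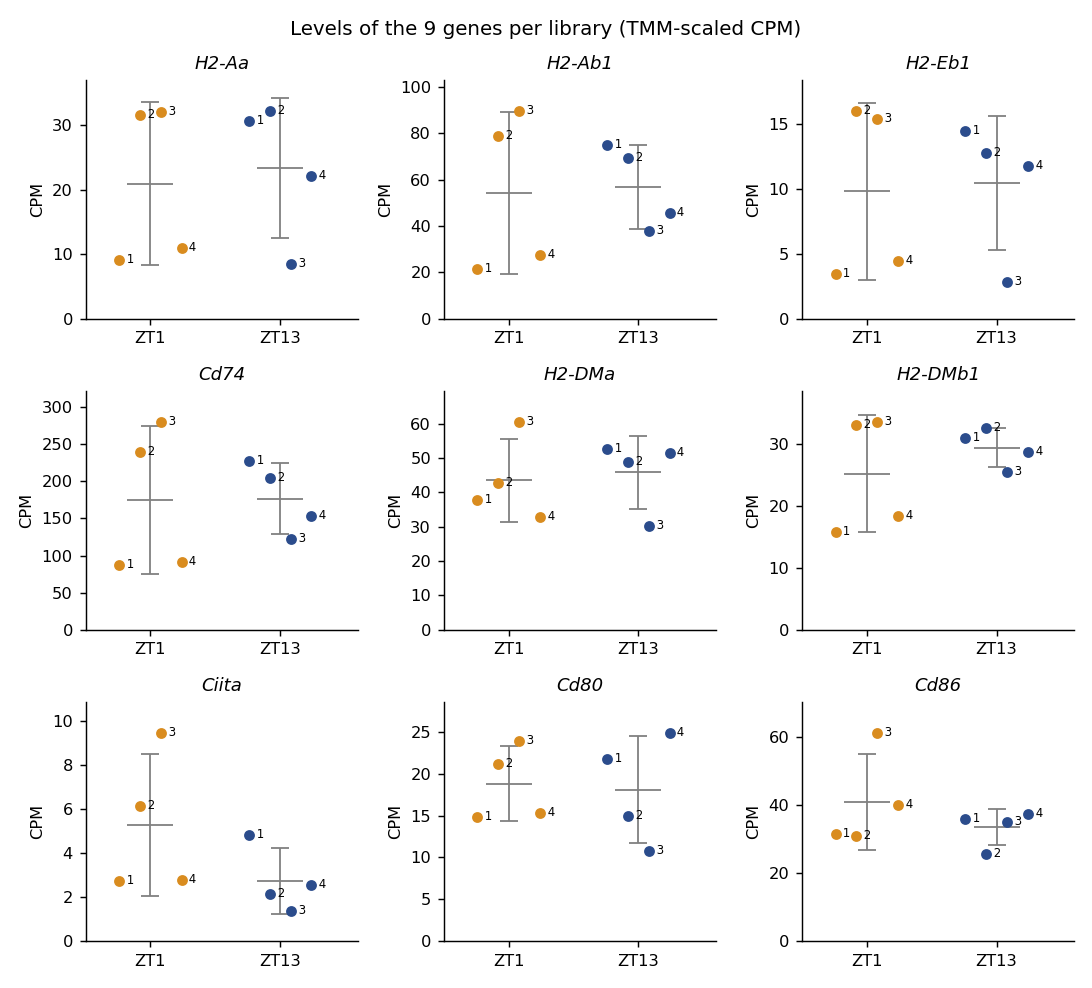
TMM-scaled CPM of each gene (linear axis from 0) in the 4 ZT1 libraries (orange) and the 4 ZT13 libraries (blue), with replicate numbers, and the mean ± SD of each time in grey. ZT1 replicates 1 and 4 are low and replicates 2 and 3 high for H2-Aa, H2-Ab1, H2-Eb1, Cd74 and H2-DMb1, so that the ZT1 spread encloses most ZT13 values.

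None of the 9 genes differed between the times beyond this spread. In edgeR's quasi-likelihood test 0 of the 9 passed a Benjamini-Hochberg adjusted p of 0.05, on a background of 0.00% of the 12610 genes tested. At an unadjusted p under 0.05 the members again gave 0, against 9.20% (1160) of all genes. DESeq2 called 0 of the 9 and 1.70% of the 15044 genes to which it gave an adjusted p, and limma-voom called none of either. The values of the times overlapped for all 9, while 5.66% of tested genes had no overlap. Of the members, 6 had positive and 3 negative log2 fold changes for ZT13 over ZT1, with a median of 0.07, beside -0.02 over all tested genes.

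The widths of the intervals say what these libraries could show. For Cd74 the log2 fold change was 0.02 ± 0.38 (SE), with a 95% interval from -0.84 to 0.87 (edgeR adjusted p = 0.994). For H2-Ab1 it was 0.07 ± 0.45, from -0.94 to 1.07, for H2-Aa 0.16 ± 0.50, from -0.96 to 1.28, and for H2-Eb1 0.09 ± 0.60, from -1.25 to 1.43. These intervals include changes close to or beyond 1 log2 unit in either direction, so the class II genes are not shown to be equal at the 2 times. H2-DMa had the narrowest interval, from -0.44 to 0.59 around 0.07 ± 0.23, and H2-DMb1 lay at 0.22 ± 0.25 (from -0.34 to 0.79). Ciita had the largest estimate, -0.95 ± 0.53 (from -2.14 to 0.24, edgeR adjusted p = 0.638), with 5.26 ± 3.21 CPM at ZT1 and 2.72 ± 1.49 at ZT13. Without ZT1 replicate 3 the estimate for Ciita was -0.51, and without ZT13 replicate 1 it was -1.38. Cd80 stood at -0.06 ± 0.28 (from -0.68 to 0.57) and Cd86 at -0.29 ± 0.23 (from -0.81 to 0.23).

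**Figure D2:**
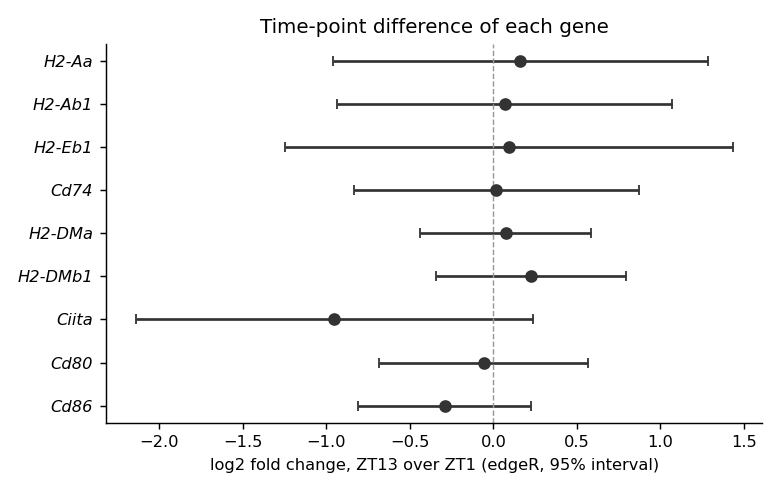
Log2 fold change of ZT13 over ZT1 for each gene, with 95% intervals from edgeR's fit over all genes. Every interval includes 0, that of H2-Eb1 runs from -1.25 to 1.43 and that of Ciita from -2.14 to 0.24.

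Across libraries, H2-Ab1, Cd74 and H2-DMb1 moved together. Over the 8 libraries the log2 CPM of H2-Ab1 and Cd74 had a Pearson r of 0.992 (exact permutation p = 2.48e-05, two-sided, the smallest that the orderings of 8 libraries give, adjusted p = 0.000893 over 36 pairs) and a Spearman rho of 1.0 (exact permutation p = 4.96e-05, adjusted p = 0.00179). H2-Ab1 and H2-DMb1 had r = 0.960 (exact permutation p = 0.000124, adjusted p = 0.00179) and rho = 0.976 (exact permutation p = 0.000397, adjusted p = 0.00476). Cd74 and H2-DMb1 had r = 0.941 (exact permutation p = 0.000149, adjusted p = 0.00179) and rho = 0.976 (exact permutation p = 0.000397, adjusted p = 0.00476). Without the 2 libraries farthest from the median of the first gene the 3 values of r were 0.994, 0.952 and 0.948. With each library left out in turn, all 3 pairs passed in 8 of 8 cases, as did H2-Aa with H2-Eb1. Within times, after subtraction of the mean of each time, r was 0.993, 0.978 and 0.969 (exact permutation within times, adjusted p = 0.0234, 0.0234 and 0.0284).

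Of the 36 pairs of members, 14 passed an adjusted p of 0.05 for Pearson's r (exact permutation) and 6 for Spearman's rho, the latter 1 when libraries were scaled by their totals alone. All 36 values of r were positive, but without ZT1 replicate 3 the 6 pairs of Cd86 with class II genes were negative. H2-Aa and H2-Eb1 fell into 3 low and 5 high libraries, so no r is given for single pairs with them, and neither set holds the 6 libraries asked of an r here. Without these 2 genes, a choice made after seeing the data, 3 of 21 pairs passed by either measure, the 3 named above, and r ran from 0.105 to 0.992 with a median of 0.626. With 7 libraries the count of 14 became 4 without ZT1 replicate 3, 4 without ZT13 replicate 1, 5 without ZT1 replicate 2, 5 without ZT13 replicate 4, 6 without ZT1 replicate 1 and 10 without each of the other 3, while the median r stayed between 0.662 and 0.785. With values taken and exchanged within times only, 14 of 36 pairs passed for Pearson's r and 17 for Spearman's rho, among them 2 and 5 of the 8 pairs of Ciita, of which 0 passed before. Ciita and Cd74 had r = 0.679 over the 8 libraries (exact permutation p = 0.0676, adjusted p = 0.120; rho = 0.619, exact permutation p = 0.115, adjusted p = 0.207) and 0.902 within times (exact permutation within times, p = 0.0122, adjusted p = 0.0312).

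Cd86 was the member least tied to the others. None of its 8 pairs passed, and its 6 pairs with genes other than H2-Aa and H2-Eb1 had r from 0.105 to 0.570. The median r over the 8 pairs was 0.208, and -0.322 without ZT1 replicate 3, the library in which Cd86 was highest. With Cd74 its r was 0.223 (exact permutation p = 0.632, adjusted p = 0.711) and its rho 0.0952 (exact permutation p = 0.840, adjusted p = 0.890), and with Cd80 its r was 0.423 (exact permutation p = 0.309, adjusted p = 0.371) and its rho 0.548 (exact permutation p = 0.171, adjusted p = 0.246). Cd80 and H2-DMa reached r = 0.837 (exact permutation p = 0.0115, adjusted p = 0.0319; rho = 0.810, exact permutation p = 0.0218, adjusted p = 0.0871), but only r = 0.659 without the 2 libraries farthest from the median of H2-DMa. That pair did not pass among the 21 pairs. A difference between correlations was not tested.

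**Figure D3:**
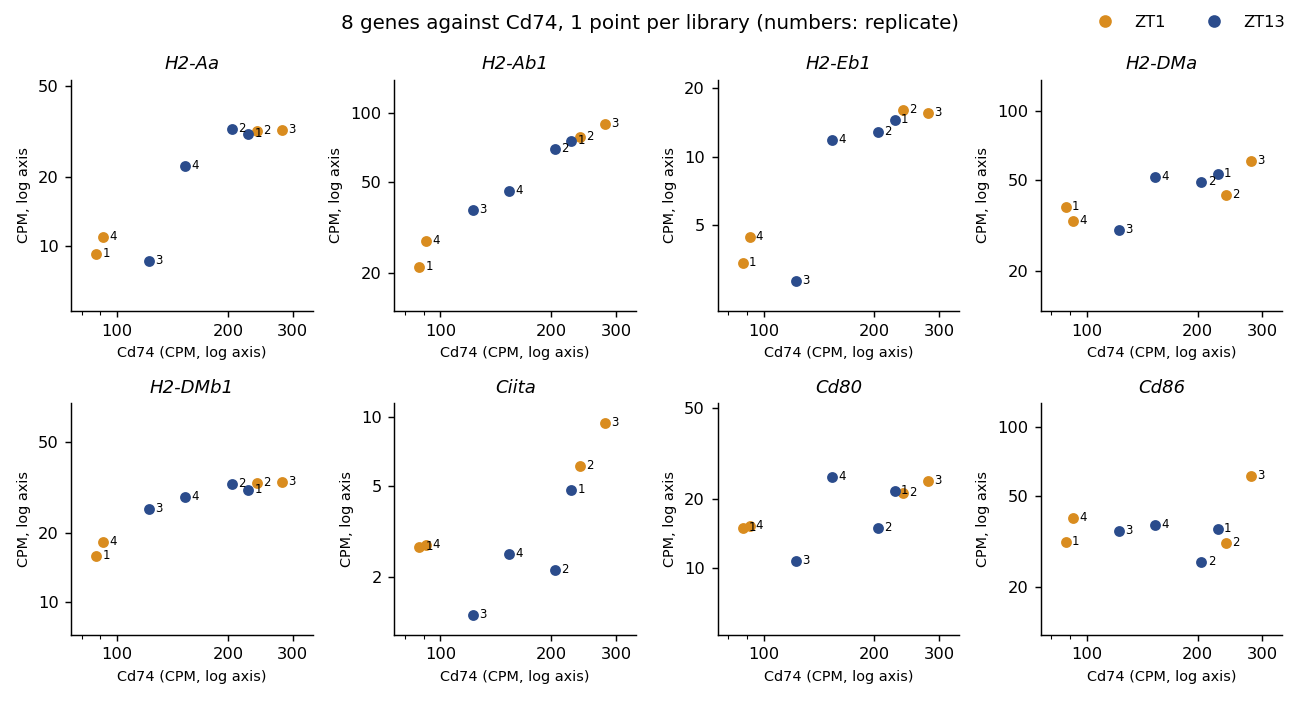
CPM of 8 genes against CPM of Cd74, both on log axes, with 1 point per library (orange ZT1, blue ZT13, numbers give the replicate). H2-Ab1 and H2-DMb1 rise with Cd74 in a single line (r = 0.992 and 0.941), H2-Aa and H2-Eb1 split into 3 low and 5 high libraries, and Cd86 shows no such line (r = 0.223).

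Ratios of counts within a library need no scaling between libraries. Per 100 counts of Cd74, H2-Ab1 had 24.2, 32.9, 32.0 and 30.1 counts at ZT1 and 33.1, 33.9, 30.8 and 29.6 at ZT13. This ratio spanned 1.40-fold, while H2-Ab1 itself spanned 4.23-fold and Cd74 3.19-fold. The ratio of H2-DMb1 spanned 1.73-fold, that of H2-Aa 2.26-fold and that of H2-Eb1 3.30-fold, the last 2 lowest in ZT13 replicate 3. For H2-DMa, Cd80 and Cd86 the ratio to Cd74 spanned as much as or more than the gene itself (2.41-, 2.32- and 3.50-fold against 2.01-, 2.31- and 2.38-fold). Ciita had 3.09, 2.57, 3.37 and 3.01 counts per 100 of Cd74 at ZT1 and 2.13, 1.05, 1.12 and 1.66 at ZT13. It was the 1 of 8 ratios in which the times did not overlap, where 1.04% of the 12609 tested genes other than Cd74 had such a ratio (0.857% lower at ZT13, the direction of Ciita), a pattern seen after the values were known and given without a test.

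The other genes of the pathway showed no called difference between the times. Of the promoter factors that recruit Ciita, 7 of 7 were tested and 0 passed (edgeR adjusted p), 3 with positive and 4 with negative values and a median log2 fold change of -0.10. Nfyb, a Y-box factor subunit and the most abundant of them, stood at 59.1 ± 7.61 CPM at ZT1 and 50.6 ± 13.8 at ZT13, and Rfxap, an X-box factor subunit, at 18.6 ± 1.62 and 23.1 ± 3.01. The summed CPM of these factors spanned 1.23-fold over the libraries. Of 6 processing and turnover genes 0 passed (2 positive, 4 negative, median -0.09). Ctss, the cathepsin that trims the invariant chain, stood at 624 ± 172 and 621 ± 164 CPM. March8, a ubiquitin ligase gene, stood at 32.7, 29.7, 25.0 and 29.1 CPM at ZT1 and 22.6, 19.6, 17.4 and 11.4 at ZT13, without overlap, and did not pass (-0.72 ± 0.21, edgeR adjusted p = 0.436, DESeq2 adjusted p = 0.0621). It was the 1 of these 6 genes without overlap, beside 5.66% of all tested genes. Of 6 genes that carry the interferon-gamma signal to Ciita 0 passed (1 positive, 5 negative, median -0.16). Irf1 stood at 107, 211, 262 and 102 CPM at ZT1 and 122, 132, 130 and 143 at ZT13, with ZT1 replicates 2 and 3 highest as for Cd74. H2-Oa and H2-Ob, which form the inhibitor of H2-DM, were at 0.650 CPM or less, with H2-Ob at 0 in 7 libraries.

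Among other ligands that act on T cells, 12 of 13 listed genes were in the table, 10 were tested and 0 passed (4 positive, 6 negative, median -0.11). The most abundant was Vsir, which encodes the inhibitory ligand VISTA, at 1084 ± 70.7 CPM at ZT1 and 1042 ± 47.4 at ZT13. Cd274 (PD-L1) stood at 22.2, 69.0, 71.0 and 20.2 CPM at ZT1 and 15.6, 11.6, 26.03 and 15.7 at ZT13 (-1.40 ± 0.45, edgeR adjusted p = 0.473). Icam1 stood at 28.6, 92.5, 98.3 and 40.6 CPM at ZT1 and 38.7, 33.2, 29.1 and 25.7 at ZT13, and Cd83 at 41.5, 68.04, 104 and 42.5 against 47.8, 47.2, 14.6 and 40.6. In all 3 genes ZT1 replicates 2 and 3 were highest, as for Ciita. Cd40 stood at 9.11 ± 5.02 and 4.45 ± 2.14 CPM. Tnfsf4 and Cd70 had 0 counts in all 8 libraries. The B7 receptor genes were scarce, with Cd28 at 0 to 2.50 CPM and Ctla4 with counts in 1 library.

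Markers of other class II-positive cells were set beside the members in every library, although the gate on Ly6G should remove most such cells. For B cells, 6 of 10 listed markers were in the table. Ebf1 had 0 counts in all libraries, while Cd79a stood at 0.235 to 0.853 CPM, Cd79b at 0.940 to 4.51 and Bank1 at 6.87 to 18.6. The summed level was 9.15 to 12.8 CPM at ZT1 and 11.3 to 23.4 at ZT13, highest in ZT13 replicate 4 and lowest in ZT1 replicate 3, the library highest in Cd74. For dendritic cells, 10 of 11 markers were in the table. Xcr1 and Clec9a were at 0 in 7 of 8 libraries, Clec10a, the most abundant by mean, stood at 2.43 to 9.91 CPM, Flt3 at 1.57 to 9.90, and 8 of the 10 were at 0 in at least 1 library. The sum was 19.8 to 23.8 CPM at ZT1 and 13.1 to 29.9 at ZT13.

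Macrophage, monocyte and microglial transcripts were more abundant. All 13 macrophage and monocyte markers were in the table, led by Ly6c2 and Csf1r, with a sum of 1949 to 2603 CPM at ZT1 and 1975 to 2637 at ZT13, a span of 1.35-fold beside 3.19-fold for Cd74. Csf1r stood at 368 to 623 CPM. Ly6c2 stood at 835 ± 160 CPM at ZT1 and 1166 ± 90.6 at ZT13, without overlap (edgeR adjusted p = 0.403), and DESeq2 called it (adjusted p = 0.0435), as it did the scarce marker Mrc1 (1.17 ± 0.744 and 0.0337 ± 0.0674 CPM, DESeq2 adjusted p = 0.0102). Of the 13 markers, DESeq2 called 2, beside 1.70% of all genes, and 2 had no overlap, beside 5.66%. The complement genes C1qa, C1qb and C1qc spanned more. C1qc stood at 3.78, 8.14, 22.7 and 4.46 CPM at ZT1 and 13.3, 19.6, 7.05 and 6.33 at ZT13. ZT1 replicates 1 and 4 were lowest for C1qc and C1qa, and ZT1 replicate 3 highest, as for Cd74. C1qb did not keep this order, highest in ZT13 replicate 2 (39.7 CPM) and lowest in ZT13 replicate 4 (5.91). The 10 microglia markers summed to 179 to 244 CPM at ZT1 and 171 to 312 at ZT13, a span of 1.83-fold, highest in ZT13 replicate 2. Tmem119, which defines microglia, stood at 1.57 to 12.3 CPM with no library at 0, P2ry12 at 10.1 to 30.1, and Sall1 was at 0 in 4 of 8 libraries. The part of such cells in the class II values was not tested, and in bulk RNA more cells of a type and more RNA per cell cannot be told apart. Ly6g, which the gate used, stood at 297 and 264 CPM in ZT1 replicates 1 and 4 and at 416 to 512 in the other 6. The sum of neutrophil markers was also lowest in ZT1 replicates 1 and 4, but not every marker followed: Csf3r was highest in ZT1 replicate 4 (2083 CPM). ZT13 replicate 3, low in H2-Aa, had the highest sum, and the sums of the 2 times did not overlap. Of the 10 neutrophil markers, 9 had positive log2 fold changes for ZT13 over ZT1. At an unadjusted edgeR p under 0.05 there were 5 of them, against 9.20% of all tested genes, and 0 passed the adjusted p. Taken singly, 0 of the 10 were without overlap. T and NK cell markers summed to 1.93 to 8.98 CPM. Of these Prf1, the perforin gene, stood at 0.279 to 0.524 CPM at ZT1 and at 0 in the 4 ZT13 libraries (DESeq2 adjusted p = 0.00178, edgeR adjusted p = 0.255). DESeq2 called 1 of the 4 tested T and NK cell markers, beside 1.70% of all genes. Prf1 had 13 to 38 counts per ZT1 library, and Mrc1 had 6 or fewer per ZT13 library. Every ZT13 library held fewer detected genes (13945 to 15751) than any ZT1 library (15760 to 17701). Whether this bears on such scarce genes was not tested. Neural, glial and endothelial markers summed to 114 to 210 CPM, nearly all of it Mbp and Pecam1.

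**Figure D4:**
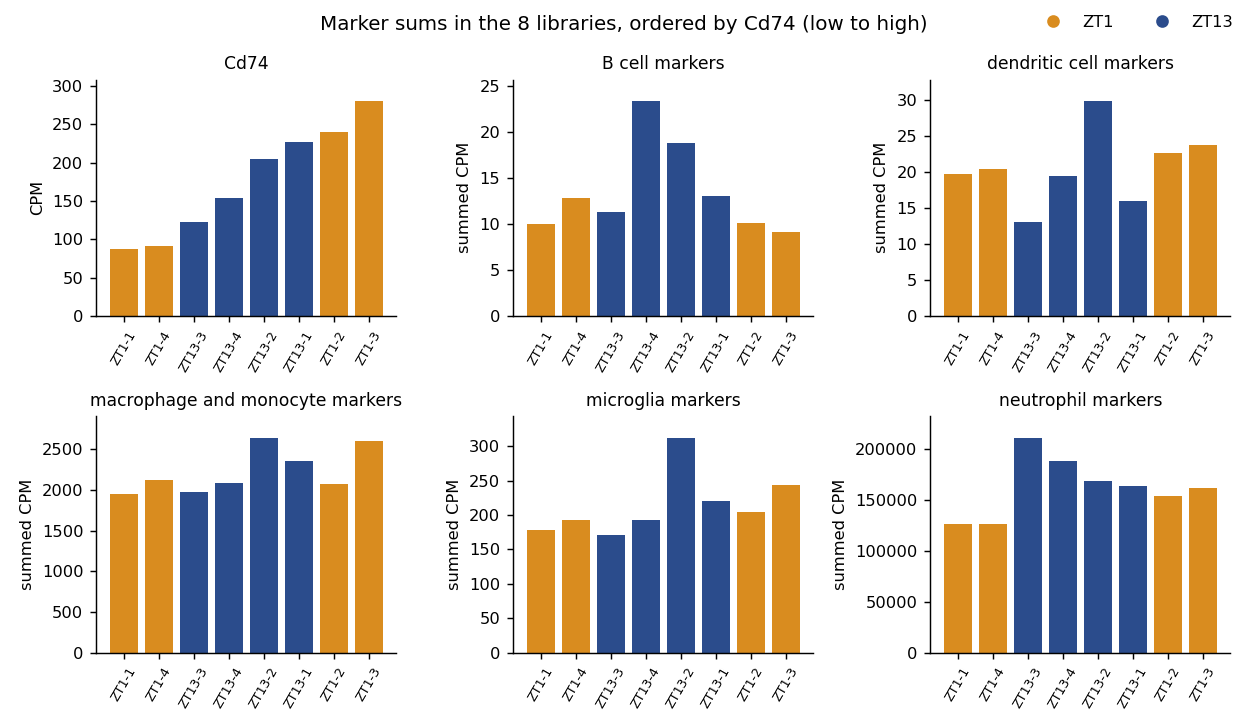
CPM of Cd74 and summed CPM of 5 marker lists in each library (orange ZT1, blue ZT13; bars start at 0), ordered from the lowest to the highest Cd74. Cd74 spans 3.19-fold, the macrophage and monocyte sum 1.35-fold and the microglia sum 1.83-fold, and the B cell sum is highest in ZT13 replicate 4.

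Genes whose levels most resembled the class II pattern were ranked over 10479 tested genes with a mean of 1 or more CPM. The measure was Pearson's r of log2 CPM with the mean of H2-Aa, H2-Ab1, H2-Eb1 and Cd74 over the 8 libraries, given as a description. This mean includes H2-Aa and H2-Eb1, which fell into 3 low and 5 high libraries, so a high r can reflect that split alone. The leading named genes were Ccnd2, a D-type cyclin (r = 0.985), Uqcrfs1 of respiratory complex III (0.935), Picalm, a clathrin adaptor (0.933), Borcs8, a lysosome-positioning subunit (0.932), and Cd44, the hyaluronan receptor (0.931). Ccnd2 stood at 2.94, 8.85, 12.3 and 3.12 CPM at ZT1 and 9.46, 8.41, 3.74 and 7.23 at ZT13, low in the same ZT1 replicates 1 and 4 and in ZT13 replicate 3. Cd44 was far more abundant, at 566 to 828 CPM. In the same ranking C1qc had r = 0.821 (rank 94), Ctss 0.805 (rank 120), Irf1 0.706 (rank 382) and P2ry12 0.688 (rank 454). Ly6g had 0.678 (rank 495), Flt3 0.547 and Cd79b 0.0702. Each of these was the highest of its list. The lowest of the same lists were Ccr2 (0.107), March8 (-0.141), Jak2 (-0.296), Gpr34 (-0.0454), Ltf (-0.461), Mgl2 (-0.132) and Bank1 (-0.0175). Per list, the median r was 0.606 for class II processing and turnover genes (6 ranked), 0.350 for the other T cell ligands (8), 0.278 for promoter factors (7), 0.0223 for interferon-gamma signalling (6), 0.480 for macrophage and monocyte markers (12), 0.569 for microglia markers (9), 0.325 for neutrophil markers (10), 0.127 for dendritic cell markers (5) and 0.0263 for B cell markers (2), beside 0.0385 over all ranked genes.

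Genes most like Ciita, Cd80 and Cd86 were ranked in the same way, again as a description. Ciita was most like Prdm1, a transcriptional repressor (r = 0.964), Btg2, an antiproliferative immediate-early gene (0.954), and Ptgs2, the inducible cyclooxygenase (0.949). Ptgs2 stood at 147, 319, 436 and 222 CPM at ZT1 and 259, 141, 77.2 and 202 at ZT13. Cd80 was most like Sytl1 (0.980), Gcsh (0.936) and the sugar transporter gene Slc2a6 (0.931), and Cd86 like Sdf2 (0.916), Pdxk (0.898) and Zfp326 (0.890). None of these genes was among the 5 nearest to the class II mean. Lists this short, picked from 10479 genes by r over 8 libraries, cannot show whether the patterns differ.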

How the data were processed

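RNA from sorted cells was converted with SMART-Seq v4 and Nextera XT, which does not mark strand, and read as single 50-base reads, per the labels' protocols. The authors deposited raw counts per gene; the submitters' processing notes list, with no roles, DESeq2 1.46.0, Subread 2.0.3 with featureCounts, STAR 2.7.10b and FastQC, and the build GRCm38. The sources used here do not give the strand setting, the annotation release or the handling of multi-mapping reads. Overlapping, antisense and near-identical genes can therefore not be told apart.

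Names, coordinates and exon lengths came from GENCODE M21 (22231 of 23369 identifiers matched without version numbers, and the others held 0.121% of counts). All 8 columns were assigned by library name. Genes were tested with edgeR 4.0.16 (filterByExpr with minimum count 10 and total 15, TMM, robust quasi-likelihood fit, common biological coefficient of variation 0.498), with Benjamini-Hochberg adjustment over the 12610 genes kept and a threshold of 0.05; all 9 members passed the filter. Standard errors are the absolute log2 fold change over the square root of F. Log2 CPM used a prior count of 2. Correlations used all orderings of the 8 libraries, or the 576 that exchange libraries within a time for values centred on each time's mean. DESeq2 1.42.0 on unfiltered counts, limma 3.58.1 (voom), other normalizations, filters, prior counts, replicate blocks and leaving out each library were run as alternatives. The edgeR fit and the correlation test over all orderings were run on simulated data with known answers.

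Of the lists, genes were named by a rule: all 9 members, the most abundant gene and up to 4 with the smallest p of each pathway list, the most abundant and smallest-p marker, and the named genes most like the class II mean (5), Ciita, Cd80 and Cd86 (3 each). Not all are printed, and 1 marker is not reported here. Defining markers, the C1q genes, Irf1 and Cd83 beside the members were singled out after their values were seen, as were the gap in H2-Aa and H2-Eb1 (over 50% of their range) and the ratios' overlap. Members and lists were chosen with earlier results of these data known.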

Additional observations from a re-analysis of the deposited data

Results flagged for a closer look

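H2-DMa in ZT13 replicate 3 stood at 30.1 CPM, far below the 48.8 to 52.7 CPM of the other 3 ZT13 libraries, a gap of 0.830 of the group's range, just past the 95% critical value of Dixon's test for 4 samples. This was 1 of 32 groups of 4 libraries looked at (9 genes and 7 marker sums at each time), and chance sets apart about 1 in 20 such groups. The same library held the fewest detected genes (13945).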

How the results depend on the processing

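The call on the 9 members (0 past the threshold) was the same under all 17 alternatives, and the count over all genes stayed at 0 except with DESeq2, which called 256 (at an unadjusted p under 0.05, edgeR had 1160). Deviations from the mean of each time correlated at 0.0018, -0.00062, -0.0399 and 0.0196 for libraries of the same title number. ZT1 replicate 4 and ZT13 replicate 3, which share a library number, had 0.0505. All combinations ran from -0.0655 to 0.0661. With 4 libraries per time these values cannot settle whether the numbers mark pairs. With the replicate number as a block, 0 genes and 0 members were called under either numbering, and Cd74 stood at 0.18 (sample titles) or 0.52 (library names, a fit without ZT1 replicate 3 and ZT13 replicate 4, which have no partner). Leaving out each library in turn moved the log2 fold changes from -0.089 to 0.44 for H2-Aa, -0.20 to 0.42 for H2-Ab1, -0.19 to 0.43 for H2-Eb1, -0.20 to 0.34 for Cd74, -0.039 to 0.27 for H2-DMa and -0.25 to 0.12 for Cd80, so that the sign of these 6 rests on single libraries. H2-DMb1 (0.05 to 0.39), Ciita (-1.38 to -0.51) and Cd86 (-0.41 to -0.03) kept theirs, and the alternatives that kept all libraries, or dropped 2 for the block, reversed none of the 9. The count of 14 correlated pairs was 14 again with values within times, but the pairs were partly others. H2-DMa with H2-Aa and with H2-Eb1, and H2-Eb1 with Cd80, no longer passed. Cd74 with H2-DMa, Cd74 with Ciita and H2-DMa with Ciita passed instead. The count became 3 of 21 without H2-Aa and H2-Eb1, and 4 to 10 when a library was left out. The cause was not tested. DESeq2 size factors, library totals and prior counts of 0.5 and 5 gave 14 by Pearson's r, but by Spearman's rho library totals gave 1 pair in place of 6. Under the stricter filter of 5 CPM in 4 libraries Ciita was not tested.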
